A study of Homo sapiens with 4 samples.

Results

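The EGF receptor (ErbB) family and its ligands were described in untreated HaCaT cells, an immortalized line of human epidermal keratinocytes, by RNA-seq of 4 replicates. The 10 genes were taken by symbol: 4 receptors (EGFR, ERBB2, ERBB3 and ERBB4) and 6 ligands (AREG, EREG, HBEGF, TGFA, BTC and EPGN), of 44591 genes in the tables and 19233 protein-coding genes. All 4 libraries came from the same line grown in Dulbecco's medium with fetal bovine serum, so no treated or control group was compared. The study calls them biological repeats, but no label says that they were separate cultures, so each p-value below measures only the spread between these 4 libraries, which may be technical.

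ErbB receptors are transmembrane tyrosine kinases that pair with each other when a ligand binds, and they signal through RAS and the MAP kinases, among other routes. EGFR binds all 6 of these ligands, ERBB4 and ERBB3 bind neuregulins, ERBB2 has no known ligand of its own and acts as a partner, and ERBB3 has little kinase activity. The ligands are made as membrane-anchored precursors that ADAM proteases cut free. In epidermis, keratinocytes make several of these ligands themselves, and the resulting autocrine loop is known for its part in keratinocyte growth and wound closure.

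Replicate 1 held 73082279 counts in all, and replicates 2 to 4 held 17056035 to 19745170. Levels are given as TPM, the count per gene length scaled to 1000000 per library, over protein-coding genes only, and a gene with a mean TPM above 1 was called detected (12165 genes). Protein-coding genes took 76.1% of the counts in replicate 1 and 95.3% to 96.4% in replicates 2 to 4. Of the TPM over all genes they took 31.0% in replicate 1 and 87.4% to 93.0% in replicates 2 to 4. Across the detected genes, replicate 1 had Spearman correlations of 0.754 to 0.780 with the rest, whereas replicates 2 to 4 had 0.944 to 0.967 among themselves. Replicate 1 thus stood apart, and values are also given without it. All 10 keratinocyte markers (KRT5, KRT14, KRT15, TP63, SFN, DSP, PERP, LAMB3, ITGA6 and ITGB4) were detected, with a summed TPM of 29227 in replicate 1 and 11667 to 15247 in the others. Without KRT15 (13064 in replicate 1 and 239 to 1308 in the others) the sums were 16163 and 11429 to 14789, and SFN and ITGB4 were lowest in replicate 1. Of the fibroblast markers 2 of 7 were detected (summed TPM 5.20 to 9.70), of the melanocyte markers 2 of 5 (3.74 to 9.12), of the immune cell markers 2 of 6, CD14 and CD68 (11.6 to 52.1), and of the endothelial markers 0 of 4 (0.859 to 2.36). TYR, PECAM1 and KDR had 0 counts in every library, and PTPRC had 3 in replicate 1 and 0 in the others.

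Of the 10 genes, 8 were detected, and 73.8% of all protein-coding genes with a count were. EGFR led in every library, ERBB2 followed, and TGFA, HBEGF, ERBB3 and AREG formed a middle group. EREG and BTC were low, and EPGN and ERBB4 were below the limit.

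**Figure D1:**
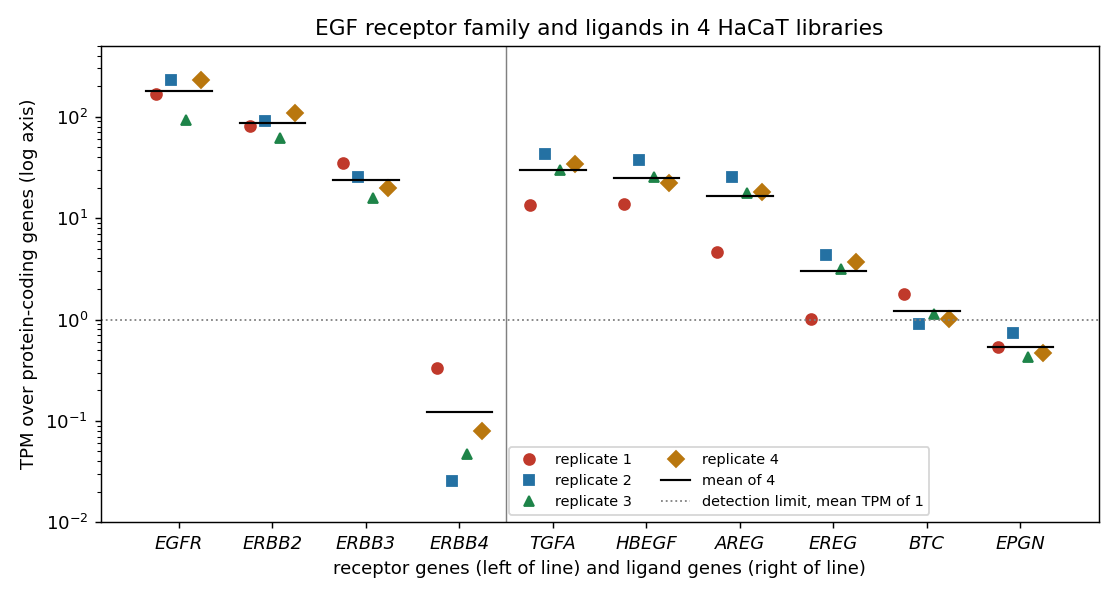
TPM over protein-coding genes (log axis) of the 4 receptor and 6 ligand genes, with a symbol for each replicate, a bar at the mean of 4 and a dotted line at a TPM of 1. EGFR lies highest at 93.2 to 230.9 and ERBB4 lowest at 0.0252 to 0.335, and replicate 1 is the lowest symbol for TGFA, HBEGF, AREG and EREG.

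Among the receptors, EGFR (chromosome 7, 55086714 to 55275773, plus strand, in hg19, the build named in the submitters' processing notes) had a TPM of 168, 230.9, 93.2 and 229 in replicates 1 to 4. Replicates 2 and 4 were alike and replicate 3 was lowest. The mean was 180.4 ± 65.0 (SD, n = 4), or 184 ± 79.0 (SD, n = 3) without replicate 1. This mean stood at percentile 92.8 of the detected genes, with 876 genes above it. EGFR rested on 6635 to 32366 counts per library, so its 95% exact Poisson intervals were narrow (91.0 to 95.5 TPM in replicate 3 and 225 to 233 in replicate 4), and the spread between libraries exceeded counting error. Here and below, intervals hold for counting error alone, because without molecular identifiers several reads can stem from a single molecule.

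ERBB2, the partner receptor (chromosome 17, 37844337 to 37884915, plus strand), had a TPM of 80.9, 91.8, 61.5 and 110.02 in replicates 1 to 4. As for EGFR, replicate 3 was lowest. The mean was 86.0 ± 20.3 (SD, n = 4), at percentile 83.2 of the detected genes. ERBB2 varied least of the receptors, with 1.79-fold between its highest and lowest library, against 2.48-fold for EGFR and 2.20-fold for ERBB3.

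ERBB3, the receptor with little kinase activity (chromosome 12, 56473809 to 56497291, plus strand), had a TPM of 34.6, 25.5, 15.7 and 19.7. Its highest value was in replicate 1, and replicate 3 was again lowest. The mean was 23.9 ± 8.20 (SD, n = 4), close to the median of the detected genes (24.5), and 20.3 ± 4.91 (SD, n = 3) without replicate 1. Replicate 3 was the lowest library for 3 of the 4 receptors and for 40.1% of all detected genes.

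ERBB4, a receptor for neuregulins as well as for some EGF-type ligands (chromosome 2, 212240442 to 213403352, minus strand), had 97, 2, 5 and 7 counts in replicates 1 to 4. The count in replicate 2 was not above 3, the number taken as the limit of detection in a library. In TPM the values were 0.335, 0.0252, 0.0467 and 0.0788. The exact Poisson interval of replicate 1 (0.272 to 0.408) lay above those of the other 3 libraries, whose highest bound was 0.162. ERBB4 was thus listed in every library but took only 0.00725% to 0.118% of the receptor TPM.

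Within a library the order EGFR, ERBB2, ERBB3, ERBB4 held in 4 of 4 replicates. EGFR took 61.0% ± 5.14 (SD, n = 4) of the summed receptor TPM, from 54.7% in replicate 3 to 66.3% in replicate 2. ERBB2 took 30.4% ± 4.17 and ERBB3 8.56% ± 2.86 (SD, n = 4). Per kilobase of the deposited length, EGFR had 2.08 times the counts of ERBB2 in replicate 1 (95% Clopper-Pearson interval 2.04 to 2.13), 2.52 times in replicate 2 (2.42 to 2.61), 1.52 times in replicate 3 (1.45 to 1.58) and 2.08 times in replicate 4 (2.02 to 2.16). The intervals of replicates 1 and 4 overlapped, while replicates 2 and 3 lay apart from them on either side. ERBB2 had 2.34 (2.26 to 2.41), 3.60 (3.36 to 3.86), 3.91 (3.62 to 4.22) and 5.58 (5.19 to 5.997) times the counts per kilobase of ERBB3 in replicates 1 to 4. The intervals of replicates 2 and 3 overlapped, and those of replicates 1 and 4 lay apart from them and from each other.

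Among the ligands, TGFA (transforming growth factor alpha, chromosome 2, minus strand, 70674412 to 70781147) had a TPM of 13.4, 42.7, 29.7 and 34.3 in replicates 1 to 4. Replicate 1 was lowest, 2.21-fold below the lowest of the others. The mean was 30.0 ± 12.3 (SD, n = 4), at percentile 56.6 of the detected genes, and 35.6 ± 6.61 (SD, n = 3) without replicate 1. HBEGF, the heparin-binding ligand (minus strand of chromosome 5, 139712428 to 139726188), had a TPM of 13.9, 37.1, 25.7 and 22.3. It too was lowest in replicate 1, by 1.60-fold, and its mean was 24.8 ± 9.60 (SD, n = 4), at percentile 50.3.

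AREG (amphiregulin), EREG (epiregulin), EPGN (epithelial mitogen, or epigen) and BTC (betacellulin) lie in a row on chromosome 4, within 546 kb in hg19 (75174187 to 75719896), with no other protein-coding gene of the tables between them. AREG (75310815 to 75320726, plus strand) had a TPM of 4.68, 25.7, 17.8 and 18.2 in replicates 1 to 4, from 145, 218, 204 and 173 counts. Replicate 1 was 3.80-fold below the lowest of the others. The mean was 16.6 ± 8.73 (SD, n = 4), or 20.6 ± 4.45 (SD, n = 3) without replicate 1. The hg19 assembly holds a near-identical second amphiregulin locus (AREGB) in this row, and 0 rows of the tables carry that symbol. The level of AREG is therefore uncertain where the counting could split or drop reads that match both.

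EREG (75230860 to 75254477, plus strand) had a TPM of 1.01, 4.36, 3.15 and 3.65, with 114 to 134 counts per library. It was likewise lowest in replicate 1, by 3.11-fold, and had a mean of 3.04 ± 1.44 (SD, n = 4). BTC (75669969 to 75719896, minus strand) had 1.78, 0.908, 1.15 and 1.00 TPM, from 122 counts in replicate 1 and 17 to 29 in the others. Here replicate 1 was highest. The exact Poisson interval of BTC in replicate 1 (1.48 to 2.13) lay above that of replicate 2 (0.529 to 1.45) but overlapped those of replicates 3 (0.767 to 1.65) and 4 (0.620 to 1.53). EPGN (75174187 to 75182520, plus strand) had 0.541, 0.728, 0.423 and 0.464 TPM, with 10 to 38 counts per library. Its mean of 0.539 ± 0.135 (SD, n = 4) was under the detection limit, and all 4 Poisson intervals overlapped. With the exon union of its protein-coding transcripts as length in place of the deposited 2893 bases, the mean was 1.16 ± 0.283 (SD, n = 4), above the limit.

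Ratios between ligands were read within each library. Per kilobase, AREG had 4.61 times the counts of EREG in replicate 1 (95% Clopper-Pearson interval 3.58 to 5.95), 5.90 times in replicate 2 (4.74 to 7.37), 5.65 times in replicate 3 (4.51 to 7.09) and 4.98 times in replicate 4 (3.94 to 6.32). All 4 intervals overlapped, and they were wide, with 114 to 218 counts per gene and library. TGFA had 0.962 times the counts per kilobase of HBEGF in replicate 1 (0.883 to 1.05), 1.15 in replicate 2 (1.04 to 1.27), 1.16 in replicate 3 (1.05 to 1.28) and 1.54 in replicate 4 (1.37 to 1.73). TGFA and HBEGF had more counts and so narrower intervals, of which that of replicate 4 lay above the other 3. The spread of the AREG to EREG ratio was not tested against that of TGFA to HBEGF, and on the log2(TPM + 1) scale the differences had an SD of 0.36 and 0.27 (n = 4). Against AREG, TGFA had 2.87 times the counts per kilobase in replicate 1 (2.42 to 3.42) and 1.66 to 1.89 times in replicates 2 to 4, and only the interval of replicate 1 lay apart.

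Upstream sequences are shown for the 4 ligands that were low together in replicate 1 and, beside them, for EGFR, the highest member. Each holds the 250 bases before the annotated gene start in RefSeq (GRCh38.p14), read 5′ to 3′ on the strand of the gene, and at genes with more than one start the one farthest upstream was used. Capitals mark exact matches, on either strand, to a TATA box (TATAAA), a cyclic AMP response element (TGACGTCA), an AP-1 site (TGACTCA) or a GC box (GGGCGG).
AREG, chr4:74444886-74445135, plus strand: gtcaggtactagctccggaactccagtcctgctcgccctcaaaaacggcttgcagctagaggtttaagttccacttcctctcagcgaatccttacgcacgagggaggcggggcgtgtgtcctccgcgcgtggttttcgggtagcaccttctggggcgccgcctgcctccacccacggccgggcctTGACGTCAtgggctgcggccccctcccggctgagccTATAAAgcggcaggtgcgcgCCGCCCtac
EREG, chr4:74364895-74365144, plus strand: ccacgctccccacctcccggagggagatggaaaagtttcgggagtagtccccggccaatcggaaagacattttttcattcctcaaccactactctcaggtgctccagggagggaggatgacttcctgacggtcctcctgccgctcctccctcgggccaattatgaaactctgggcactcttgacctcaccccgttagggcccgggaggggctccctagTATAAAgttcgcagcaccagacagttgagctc
TGFA, chr2:70553827-70554076, minus strand: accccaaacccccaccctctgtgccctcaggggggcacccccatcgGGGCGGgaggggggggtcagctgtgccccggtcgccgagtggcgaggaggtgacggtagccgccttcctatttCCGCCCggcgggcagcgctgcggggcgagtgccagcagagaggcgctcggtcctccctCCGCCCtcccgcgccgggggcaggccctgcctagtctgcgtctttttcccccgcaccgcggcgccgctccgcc
HBEGF, chr5:140346604-140346853, minus strand: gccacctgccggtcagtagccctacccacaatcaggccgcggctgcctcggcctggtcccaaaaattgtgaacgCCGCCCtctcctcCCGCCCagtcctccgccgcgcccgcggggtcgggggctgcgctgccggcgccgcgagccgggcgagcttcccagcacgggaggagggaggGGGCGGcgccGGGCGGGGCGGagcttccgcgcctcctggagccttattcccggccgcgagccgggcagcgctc
EGFR, chr7:55018767-55019016, plus strand: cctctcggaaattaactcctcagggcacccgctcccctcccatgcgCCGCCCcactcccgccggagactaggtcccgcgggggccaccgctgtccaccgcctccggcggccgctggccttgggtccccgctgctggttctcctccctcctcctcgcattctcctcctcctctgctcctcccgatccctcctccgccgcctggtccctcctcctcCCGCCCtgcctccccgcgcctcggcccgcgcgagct
AREG and EREG each had a TATA box letter match, which began 29 and 32 bases before the start. AREG also had the cyclic AMP response element 65 bases before the start, and 1 GC box. TGFA had 3 GC box matches, HBEGF 5 and EGFR 2, and none of these had the TATA box letters. In HBEGF, 2 of the 5 matches share a base. The TATA box letters were found in 10.7% of 35116 promoters of the same length, the cyclic AMP response element in 1.65%, the AP-1 site in 4.20% and the GC box in 42.6%. Of the 9 members in the RefSeq table, which was searched by symbol, EPGN was the other with the TATA box letters, ERBB4 had 1 GC box, and ERBB2 and BTC had no match. ERBB3 was not among them. A match of letters is not a binding site, and no factor was measured.

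As shares of the summed ligand TPM, TGFA took 37.9% to 42.9%, HBEGF 27.9% to 39.4% and AREG 13.2% to 23.0%. The AREG share was 23.0%, 22.8% and 22.8% in replicates 2 to 4, while it was 13.2% in replicate 1. The leading ligand by mean, TGFA, took 39.3% ± 2.41 (SD, n = 4), but in replicate 1 HBEGF took slightly more (39.4% against 37.9%). EREG, BTC and EPGN together made up the rest, and BTC took 5.04% in replicate 1 and 0.814% to 1.47% in the others.

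**Figure D2:**
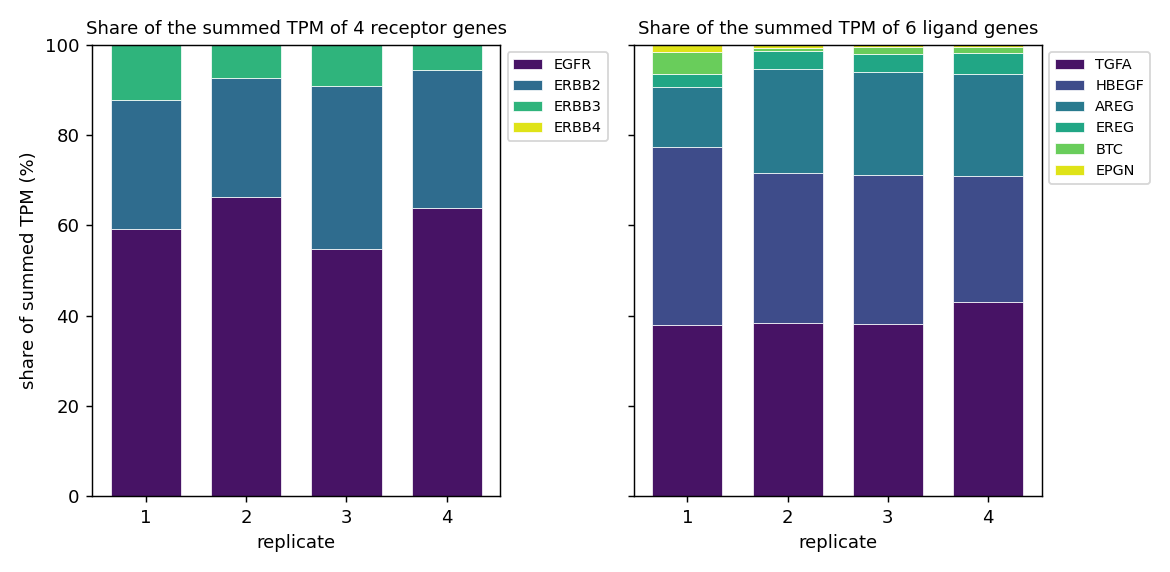
Share of the summed TPM (%) taken by each of the 4 receptor genes (left) and each of the 6 ligand genes (right) in replicates 1 to 4. EGFR takes 54.7% to 66.3% of the receptor bar in every library, and the AREG segment is 13.2% in replicate 1 and 22.8% to 23.0% in the others.

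The ligand sum was small beside the receptor sum. The summed receptor TPM was 284, 348, 170.5 and 359 in replicates 1 to 4, and the summed ligand TPM was 35.4, 111.6, 77.9 and 80.0. The ligand sum was thus 12.5%, 32.04%, 45.7% and 22.3% of the receptor sum. This ratio within a library does not depend on how libraries are scaled, and it was lowest in replicate 1, whose ligand sum was low, and highest in replicate 3, whose receptor sum was low.

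The 10 genes were then ordered by mean TPM, and each was compared with the next within each library on the log2(TPM + 1) scale, which understates the differences of low genes. A step was taken as beyond the spread where it had one sign in every replicate and a mean above its SD. The test was an exact permutation of signs, two-sided, whose smallest possible p with n = 4 is 0.125, and after Benjamini-Hochberg adjustment over the 9 steps the smallest exact p was 0.225. By the spread, 5 of 9 steps held. EGFR exceeded ERBB2 by 1.00 ± 0.30, ERBB2 exceeded TGFA by 1.57 ± 0.69, AREG exceeded EREG by 2.01 ± 0.36, BTC exceeded EPGN by 0.51 ± 0.30 and EPGN exceeded ERBB4 by 0.46 ± 0.22 (SD, n = 4; exact permutation of signs, p = 0.125 for each). With the exon union as length, EGFR exceeded ERBB2 by 0.59 ± 0.30, and BTC and EPGN differed by 0.18 ± 0.36 (SD, n = 4), within the spread. Without length correction EPGN and ERBB4 differed by 0.13 ± 0.60 (SD, n = 4), also within it.

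Per length, the remaining neighbours in the order did not differ beyond their spread. TGFA and HBEGF differed by 0.24 ± 0.27, HBEGF and ERBB3 by 0.03 ± 0.88, ERBB3 and AREG by 0.65 ± 1.34, and EREG and BTC by 0.80 ± 0.87 (SD, n = 4; exact permutation of signs, p = 0.25, 1.00, 0.75 and 0.25). In 3 of these steps the sign turned only in replicate 1, where ERBB3 was the third highest and BTC was above EREG. In the other, ERBB3 against AREG, replicate 1 had a difference of 2.65 and replicates 2 to 4 had -0.17 to 0.11. Without replicate 1, 8 of 9 steps were beyond the spread, and only ERBB3 and AREG (-0.02 ± 0.14, SD, n = 3) were not. The pairs and their direction came from the order of these same values, so a positive mean was largely built in. One sign in every library is also easier to meet with 3 libraries than with 4. Leaving out replicate 2, 3 or 4 gave 5 steps each. The order also rests on the length correction: without it TGFA and HBEGF differed by 1.22 ± 0.28, ERBB3 and AREG by 2.80 ± 1.28, and AREG and EREG by 0.47 ± 0.18 (SD, n = 4).

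**Figure D3:**
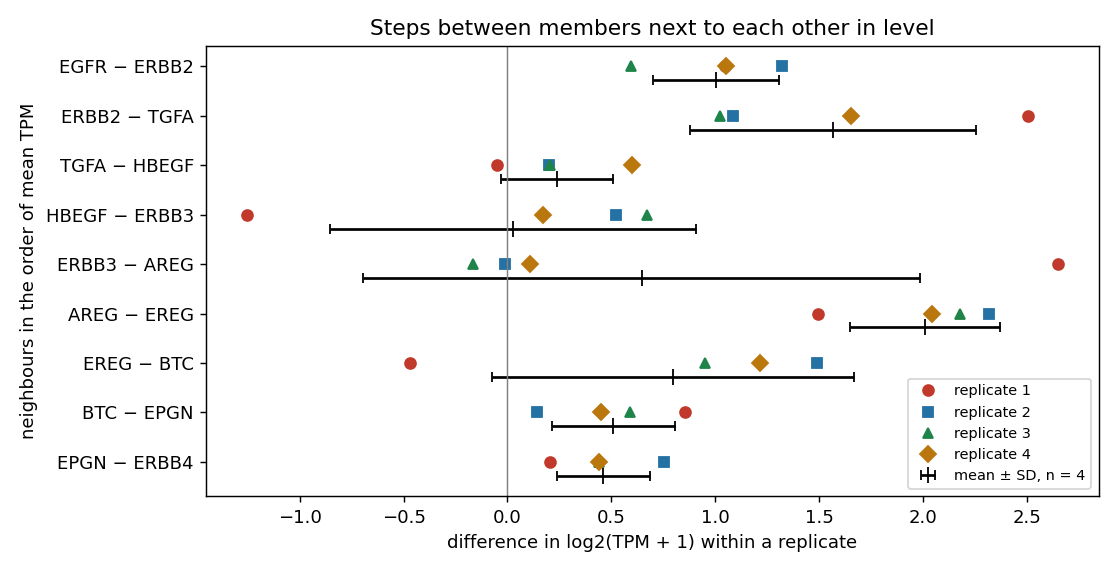
Difference in log2(TPM + 1) within a replicate between members next to each other in the order of mean TPM, with a symbol for each replicate and the mean ± SD (n = 4) below it. For 5 of 9 pairs every symbol lies above 0 and the mean exceeds the SD, and for the remaining 4 replicate 1 lies far from the other symbols or below 0.

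TGFA, HBEGF, AREG and EREG were the members lowest in replicate 1, so 4 of 10 were, against 37.4% of detected genes and 34.0% of all protein-coding genes with a count. This share is near the background. Replicate 1 was highest for 3 of 10 (ERBB3, ERBB4 and BTC), against 40.2% of detected genes, and replicate 2 was highest for 6 of 10 (EGFR, AREG, EREG, HBEGF, TGFA and EPGN), against 23.3%. For 3 of 10 (AREG, EREG and TGFA) replicate 1 was more than 2-fold below the lowest of the others, against 16.3% of detected genes and 17.1% of all with a count. On the log2(TPM + 1) scale the median difference of replicate 1 from the mean of the others was -1.08 for the 6 ligands and 0.16 for the 4 receptors. For all protein-coding genes with a count it was -0.02. Among detected genes alone it was -1.22 for 5 ligands and -0.02 for 3 receptors, against 0.03 for all of them. The same 4 members were lowest with TMM, median-of-ratios or upper-quartile scaling and without length correction. TPM over all genes is a scaling that moves the median of all detected genes in replicate 1 by -1.31. With it 9 members were lowest there, as were 80.7% of detected genes. With the values as deposited 7 members and 57.8% of detected genes were. These counts of members are near those backgrounds. The deposited values are RPKM in replicates 1 and 2 and TPM over all genes in replicates 3 and 4. They therefore cannot be compared directly between all libraries.

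Library composition also differed in replicate 1, and its part in the result was not tested. Replicate 1 deviated with GC content across 11889 detected genes (Spearman correlation, -0.51, against 0.24 to 0.38 for the others), that is, GC-rich genes were lower in it. In the longest protein-coding transcript, the GC content was 36.1% for EREG, 45.3% for AREG, 45.9% for TGFA and 50.9% for HBEGF, and the median of detected genes was 49.1%. EREG, AREG and TGFA thus lay below that median and HBEGF above it. The GC content was 59.3% for ERBB2, 52.0% for ERBB3 and 47.5% for EGFR. No member had a replicate set apart by Dixon's test (0 of 10, against 9.82% of detected genes and 16.1% of all with a count). ERBB4, with a gap of 0.827 of its range, lay just under the 95% limit, and it was past it with TMM, median-of-ratios or upper-quartile scaling and without length correction. That made 1 of 10 members, beside 11.2% to 11.5% of all detected genes with those scalings.

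The other ligands of the family were read from a list of 5. NRG1, a neuregulin that binds ERBB3 and ERBB4, had a TPM of 10.2, 57.9, 39.7 and 32.9 in replicates 1 to 4. Its mean was 35.2 ± 19.7 (SD, n = 4), beside 30.0 for TGFA, and it too was lowest in replicate 1. NRG4, a ligand of ERBB4, had 13.5, 3.56, 2.03 and 6.24 and was highest in replicate 1. NRG2 had 9.54 in replicate 1 and 0.402 to 0.528 in the others. EGF itself had 3, 2, 0 and 1 counts, none above the limit of 3 counts, so its transcript was not detectable at this depth.

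The proteases and helpers of ligand shedding were present, with 9 of 10 detected and a median of 52.1 TPM over the list, against 12.7 for all protein-coding genes with a count. Of the latter, 73.8% were detected, which stands beside the counts of detected genes here and below. The other lists had medians of 24.8 (adaptors and ubiquitin ligases), 48.2 (RAS to MAP kinases), 51.2 (immediate-early genes), 11.3 (feedback inhibitors) and 2.72 TPM (other ligands). ADAM17, the main sheddase of AREG, EREG, HBEGF and TGFA, had a TPM of 39.9, 36.7, 22.2 and 37.5, a mean of 34.1 ± 8.03 (SD, n = 4). Like EGFR, ERBB2 and ERBB3 it was lowest in replicate 3. ADAM10, which is known to cut BTC, had 97.8 ± 38.1, ADAM15 had 133 ± 49.3 and ADAM8 had 108 ± 63.6 (SD, n = 4). RHBDF2, which carries ADAM17 to the cell surface, had 4.18 TPM in replicate 1 and 26.7 to 51.2 in the others. Of the same list, RHBDF1 had 31.4 in replicate 1 against 23.8 to 48.2, and FRMD8 had 58.1 against 57.6 to 89.3. For 4 of the 10 replicate 1 was lowest, and for 4 by more than 2-fold, beside 34.0% and 17.1% of all protein-coding genes with a count. For 1 of the 10 it was highest, beside 40.2% of all detected genes.

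All 12 adaptors and ubiquitin ligases were detected. GRB2, the adaptor that links the receptors to RAS, had 85.5 ± 9.31 TPM (SD, n = 4), SHC1 had 82.9 ± 19.6 and CBLC, a ubiquitin ligase of epithelia, had 78.7 ± 44.2 (SD, n = 4). All 10 genes from RAS to the MAP kinases were detected, led by HRAS at 228 ± 87.2, MAP2K2 at 192 ± 64.6 and MAP2K1 at 125.6 ± 40.3 (SD, n = 4). For 5 of the 10 replicate 1 was lowest, and for 0 of 10 by more than 2-fold, beside 37.4% and 16.3% of all detected genes. For 4 of the 10 it was highest, beside 40.2%.

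The last lists held feedback inhibitors and immediate-early genes, among them genes that EGFR signalling is known to induce. Of 14 feedback inhibitors 13 were detected, 9 were lowest in replicate 1, and 7 by more than 2-fold, beside 34.0% and 17.1% of all protein-coding genes with a count. DUSP6, a phosphatase that switches off ERK, had a TPM of 10.5, 130.3, 98.4 and 68.0 in replicates 1 to 4. SPRED2, an inhibitor of the RAS to RAF step, had 4.72, 33.5, 19.8 and 28.7, and DUSP4 had 2.001, 40.3, 23.0 and 15.9. The list was not uniform, since 3 of the 14 feedback inhibitors were highest in replicate 1, beside 40.2% of all detected genes. Of 11 immediate-early genes 9 were detected, and 10 (all but FOS) were lowest in replicate 1. Of those, 8 were detected, beside 37.4% of all detected genes lowest there. EGR2 (3, 12, 2 and 4 counts) and EGR3 (0.2467 TPM against 0.2470 in replicate 3) were under the limit. For 7, all detected, replicate 1 was more than 2-fold below the lowest of the others, beside 16.3% of all detected genes. FOSL1, an AP-1 subunit, had 3.26 TPM in replicate 1 and 170 to 572 in the others, IER3 had 67.0 against 335 to 441, and JUNB had 282 against 333 to 562. The median difference of replicate 1 from the mean of the others was -0.65 for the feedback inhibitors, -2.23 for the immediate-early genes and -0.25 for the RAS to MAP kinase genes. Over the detected genes of each list it was -0.73, -2.55 and -0.25. In GC content all 11 immediate-early genes lay above the 49.1% median of detected genes (50.8% to 64.9%), the side that was lower in replicate 1. So did 4 of the 14 feedback inhibitors and 6 of the 10 RAS to MAP kinase genes. The part of GC content in the result was not tested. These lists were not tested against other genes, and replicate 1 is a single library that also differs in its RNA classes.

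**Figure D4:**
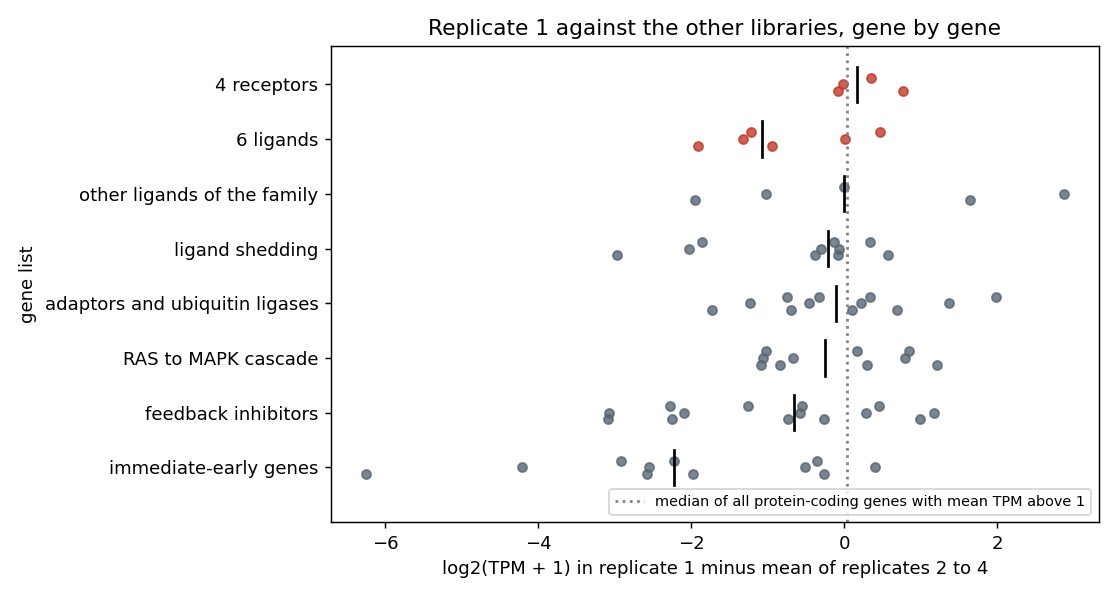
Difference in log2(TPM + 1) between replicate 1 and the mean of replicates 2 to 4 for each gene (points) of the receptors, ligands and 6 pathway lists, with a bar at each list's median and a dotted line at the median of all detected genes (0.03). The receptors lie around the line, with a median of 0.16, and the medians of the ligands (-1.08) and immediate-early genes (-2.23) lie below it. These medians include genes that were not detected, and without those they were -0.02, -1.22 and -2.55.

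The protein-coding genes that ran closest to EGFR in level over the 4 libraries were DSG2, a desmosomal cadherin, VCL, which encodes the adhesion protein vinculin, and SLC44A2, a choline transporter, where the largest difference in log2(TPM + 1) in any library was 0.30, 0.31 and 0.41. For TGFA they were ATG2A, ZNF592 and RRP1B, at 0.14, 0.17 and 0.20. This likeness was searched over 19233 genes and 4 libraries and describes levels only.

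Rows that overlap a member were also read. EGFR-AS1, on the opposite strand of EGFR, had 5, 140, 38 and 29 counts in replicates 1 to 4, against 6635 to 32366 for EGFR. ERBB2 overlaps the 3′ end of MIEN1 on the opposite strand, which had 627 to 2136 counts. Whether the counting used strand is not given in the sources used here, so reads in these overlaps cannot be assigned to one gene.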

How the data were processed

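RNA-seq of 4 untreated HaCaT replicates was used, with replicate numbers from the sample titles. The authors deposited raw read counts per gene with a gene length in bases for each library, not pooled. Beside the counts the authors deposited RPKM for replicates 1 and 2 and TPM over all genes for replicates 3 and 4. The submitters' processing notes name hg19, HISAT2, TopHat2, Bowtie2 and HISAT. The counter, annotation, strand setting and RNA selection are not given in the sources used here.

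TPM was recomputed over protein-coding rows from counts and deposited lengths. The members and gene lists were chosen with earlier results of these data known. Named genes were the 10 members, the 3 highest of each list, list genes at 3 counts or fewer in every library, and the 3 genes closest to EGFR and TGFA. Genes overlapping a member by position were named too, and ADAM17, RHBDF1, RHBDF2, FRMD8, FOS, EGR2 and EGR3 were named after their values were seen. Differences between genes were tested within libraries by exact permutation of signs, two-sided. Total counts of 17056035 to 73082279 put 3 counts at 0.0410 to 0.176 per 1000000. GENCODE release 29 (GRCh38) gave the GC content of each gene's longest protein-coding transcript and, as an alternative gene length, the exon union of its protein-coding transcripts. Dixon's calls and the recovery of TPM were checked on simulated counts, and the permutation of signs on fixed values. The steps between members were not simulated. Alternatives were other scalings (edgeR 4.0.16 TMM, median of ratios, upper quartile), pseudocounts, lengths, detection limits and leaving out each replicate. Software was R 4.3.3, pandas 2.3.3, matplotlib 3.10.9, SciPy 1.17.1 and NumPy 2.4.6 under Python 3.11.15.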

Additional observations from a re-analysis of the deposited data

Results flagged for a closer look

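Of 50 sets of 4 values, one for each replicate, 8 had a gap to their outermost replicate past Dixon's 95% critical value, where chance gives about 1 in 20, or 2.50. The same held for 9.82% of detected genes and 16.1% of all protein-coding genes with a count, so 8 of 50 is near the share over all genes. Some sets are shares of a common sum and so depend on each other. In 7 of the 8 the replicate apart was replicate 1. These were the total count (gap of 0.952 of the range), the share of counts in protein-coding genes (0.947), the share of ligand TPM taken by AREG (0.972), BTC (0.844) and EPGN (0.889), and the TPM of NRG2 (0.986) and GRB2 (0.919). The remaining one was the TGFA share of ligand TPM (0.921), where replicate 4 was apart.

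Of 4 rows outside the protein-coding genes that overlap a member, 3 had a count above the limit of 3 in some library, and MIR548F2, in ERBB4, had 0 in all. EGFR-AS1 reached 140 counts, in replicate 2. TGFA-IT1, inside TGFA on the same strand, reached 9 and MIR4728, within ERBB2, reached 7, both in replicate 1.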

How the results depend on the processing

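Leaving out each replicate in turn gave 5 to 8 steps of the order beyond the spread, against 5 of 9 with all 4, and the 8 was without replicate 1. The rule of one sign in every library is easier to meet with 3 libraries than with 4. Without length correction (CPM) the EGFR share of receptor counts was 68.6% and the TGFA share of ligand counts 58.8%, and the differences were 1.22 for TGFA from HBEGF, -1.33 for HBEGF from ERBB3, 2.80 for ERBB3 from AREG and 0.47 for AREG from EREG. With the exon union of protein-coding transcripts as gene length (11569 in place of 7917 bases for EGFR), chosen after seeing the data, the EGFR share of receptor TPM was 54.7% and EPGN passed the detection limit, so that 9 members did. In TPM over all genes and in the values as deposited 7 members did, since the mean of BTC was 0.822 and 0.720. The number of members with a replicate apart was 1 of 10 (ERBB4) in place of 0 with CPM, TMM, median-of-ratios or upper-quartile scaling. With these 4 scalings 11.2% to 11.5% of all detected genes had one, so 1 of 10 is near the background. The members lowest in replicate 1 were 9 in TPM over all genes and 7 in the values as deposited, in place of 4. Beside them stood 80.7% and 57.8% of all detected genes in place of 37.4%. In TPM over all genes 6 members in place of 3 were so by more than 2-fold. The share of all genes was not computed for this. With that scaling the median log2 difference of all detected genes in replicate 1 was -1.27, so the 6 cannot be read as a result about the members. The values as deposited mix RPKM and TPM, so they cannot be compared directly between all libraries. No step that was beyond the spread reversed under any alternative. Against the alternatives, the members' mean levels moved by less than 1 SD in 96 comparisons and by more in 14, of which 6 were without length correction and 5 in the values as deposited. Leaving out 1 of 4 values cannot move a mean by 1 SD. The 10 comparisons for each replicate left out were therefore fixed in advance and say nothing on stability. CPM is also a different unit from TPM, so the 96 and 14 are no measure of robustness. With 3 libraries left, Dixon's test was not run. No paired analysis was possible because there is 1 group. The cause of these changes was not tested. ERBB4, EPGN and BTC had 29 counts or fewer in each of replicates 2 to 4, which limits comparisons between libraries.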
